A study of Mus musculus with 12 samples.

Results

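The enzymes that cross-link collagen and elastin, and those that prepare their lysines, were followed on 12 two-colour arrays of mouse 3T3 cells, an established fibroblast line. The members are Lox, Loxl1, Loxl2, Loxl3 and Loxl4 (the lysyl oxidases), Plod1, Plod2 and Plod3 (the lysyl hydroxylases) and Tgm2 (a transglutaminase). They were chosen by symbol in the platform annotation, which named 14 probes for the 9 genes, of 38784 probes on the array. Loxl1, Loxl2, Plod2, Plod3 and Tgm2 had 2 probes each and the other 4 genes 1. All 14 probes passed the filter on blank values, and 13 had a value on all 12 arrays. The Loxl4 probe was blank on control replicate 2, so every control value of Loxl4 below rests on 2 arrays.

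The 4 groups were untreated control cells and cells given Shld1 at 10 nM, 100 nM or 1 µM, with 3 arrays in each. Shld1 is a cell-permeable ligand of a destabilizing domain derived from FKBP12, and it shields proteins fused to that domain from degradation. The labels do not say whether these cells carried such a fusion, how long they were treated or whether replicates were separate cultures, so p-values measure only the spread between these samples. On every array the cell RNA carried Cy5 and a commercial mouse reference RNA carried Cy3, with no dye swap. Values are therefore log2 ratios of cells over reference, centred on the median of each array. The log base was assumed to be 2, and the direction was taken from the dyes and the signs of cell type markers. If the deposited ratio ran the other way, every sign below would turn.

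Lysyl oxidases are secreted, copper-dependent enzymes that oxidise lysine and hydroxylysine side chains of collagen and elastin to reactive aldehydes, from which covalent cross-links form in the matrix. Lysyl hydroxylases act earlier, on collagen chains in the endoplasmic reticulum. PLOD2 hydroxylates the telopeptide lysines that give hydroxylysine-derived cross-links, PLOD1 acts mainly on the helix, and PLOD3 also carries glycosyltransferase activity. Transglutaminase 2 joins glutamine to lysine residues of matrix and cell proteins by a different chemistry. Fibroblasts are the main makers of fibrillar collagen in connective tissue.

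An array gave from 30649 to 33615 values, and 30357 probes entered the tests. The labelled cell type was checked with markers, whose signs had also helped to settle the direction of the ratio and so are no independent evidence of it. In control cells 8 of 10 fibroblast markers were above the reference and 1 below (limma, adjusted p under 0.05), while 5 of 6 measured leukocyte and macrophage markers and 3 of 5 epithelial markers were below it. Averaged over the 10 fibroblast markers, the log2 ratio lay between 1.44 and 1.85 on control arrays and between 1.12 and 1.40 on arrays at 1 µM. Those marker ranges did not overlap, but only by the gap from 1.40 to 1.44, and their part in the results below was not tested. The share of other gene sets with such a gap was not computed. Single fibroblast markers changed by -1.26 to 0.16 at 1 µM, with a median of -0.28, so the lowest of them weighs much in the average. The leukocyte and macrophage average ran from -1.77 to -0.74 on control arrays and from -1.16 to -0.58 at 1 µM, and the epithelial one from -1.65 to -0.65 and from -1.04 to -0.80, so both overlapped. Of the markers of other cell types, 1 of 2 endothelial, 2 of 4 adipocyte and 1 of 4 smooth muscle genes passed above the reference, and 2 adipocyte genes below it. With 1 value per gene, 26.5% of all 14524 genes passed above the reference in control cells and 19.6% below. The smooth muscle count is near the first of these shares. Earlier results of these data had shown lower fibroblast genes at 1 µM, so this is no independent support.

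In untreated cells the founding lysyl oxidase Lox and its close relative Loxl1 stood far above the reference RNA. The Lox probe read 2.00, 2.48 and 1.94 on the 3 control arrays, a mean log2 ratio of 2.14 (SD 0.30, n = 3). In such bulk RNA fewer cells of a type and less RNA per cell cannot be told apart. The Lox probe lay above the reference in limma (95% interval 1.74 to 2.55, adjusted p = 7.0e-06, Benjamini-Hochberg over all probes). Loxl1, which is known for its role in elastic fibres, gave 2.15, 2.50 and 2.23 on probe 17720, a mean of 2.30 (SD 0.18, n = 3; 95% interval 2.00 to 2.59, adjusted p = 5.3e-07 in limma). Over all 12 arrays the mean ratios of these probes were higher than those of 99.6% of the tested probes for Lox and 99.8% for Loxl1. The second Loxl1 probe, 15546, read 1.02, 0.61 and -0.01 in controls and did not pass (mean 0.54, SD 0.52, n = 3, adjusted p = 0.129 in limma).

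The other lysyl oxidases lay near or below the reference. Loxl2, which also acts on the network collagen of basement membranes, read -2.72, -0.92 and -0.59 on probe 6281 and -1.34, -0.57 and -0.22 on probe 34210. Control replicate 1 was the lowest on both probes. Both passed below the reference (mean -1.41, adjusted p = 0.0126, and mean -0.71, adjusted p = 0.0120, limma, n = 3), but neither did without control replicate 1, where the means were -0.76 (adjusted p = 0.139) and -0.40 (adjusted p = 0.130). Loxl3 read 0.29, -0.21 and 0.18, on either side of the reference (95% interval of the mean -0.20 to 0.37). Loxl4 read -0.09 and -0.22 on its 2 control arrays and did not pass (adjusted p = 0.361 in limma).

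Among the lysyl hydroxylases, Plod1 and Plod2 lay below the reference and Plod3 was divided between its probes. Plod1 read -0.60, -1.13 and -0.96 (mean -0.89, SD 0.27, n = 3, adjusted p = 0.000817 in limma). Plod2 probe 9958 read -2.15, -2.82 and -1.82 and passed (mean -2.26, SD 0.51, n = 3, adjusted p = 0.000115 in limma). The other Plod2 probe, 37548, read -0.53, -0.94 and -0.11 and did not (mean -0.53, adjusted p = 0.0736 in limma, n = 3). For Plod3, probe 26032 read 0.76, 0.52 and 0.66, above the reference (mean 0.64, SD 0.12, n = 3, adjusted p = 0.00150 in limma), whereas probe 16946 read -0.14, -1.05 and -0.49, below it (mean -0.56, SD 0.46, n = 3, adjusted p = 0.0212 in limma). That second call ended without control replicate 2 (mean -0.32, adjusted p = 0.209) and without control replicate 3 (mean -0.60, adjusted p = 0.0571).

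Tgm2 was below the reference on both probes. Probe 9636 read -1.62, -1.59 and -0.88 in controls (mean -1.36, SD 0.42, n = 3, adjusted p = 0.000106 in limma), and probe 6749 read -1.70, -1.67 and -2.41 (mean -1.93, SD 0.42, n = 3, adjusted p = 0.00194 in limma). In all, 3 of 14 member probes (21.4%) passed above the reference in control cells, where 23.4% of all tested probes did, and 7 of 14 (50%) passed below it, where 19.9% of all did. The first share is close to the background. The second counts Loxl2 and Tgm2 by 2 probes each and ran from 5 to 8 probes in fits without 1 array. With 1 value per gene, 4 of 9 genes passed below, where 19.6% of all genes did. Over all 12 arrays 4 probes passed above (35.6% of all probes) and 9 below (35.6%), and only Loxl3 did not pass. These tests cover the spread between arrays, not that of the reference RNA, whose make-up is not described in the labels. Since dyes were never swapped, dye bias and a true difference in transcript level cannot be told apart.

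**Figure D1:**
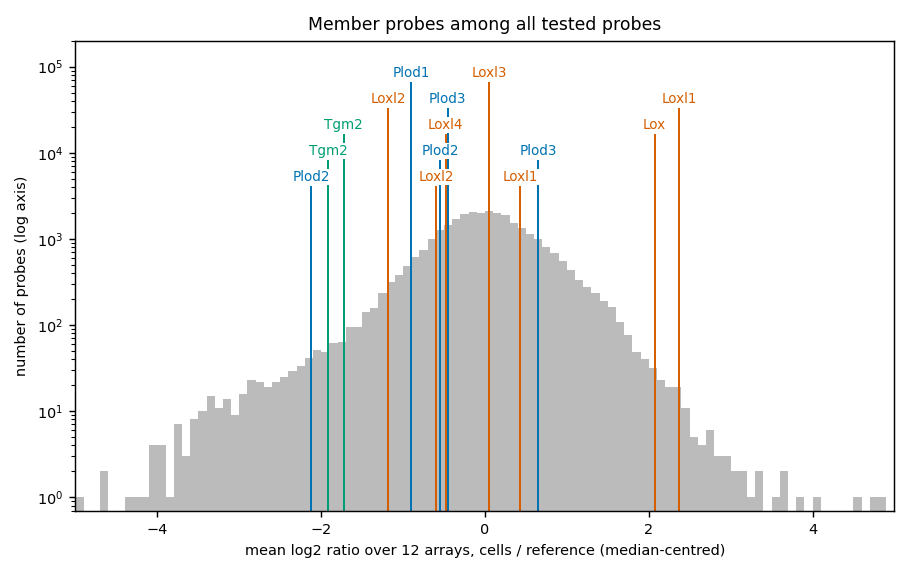
Mean log2 ratio of cells over reference across the 12 arrays (horizontal axis) for all 30357 tested probes (grey histogram, log vertical axis) and for the 14 member probes (coloured lines, with heights set only to separate the names). Lox and a Loxl1 probe lie at 2.07 and 2.37, in the upper tail, and Plod2 and Tgm2 probes lie in the lower tail.

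Probes of the same gene often gave different ratios. Probe 15546 of Loxl1 lay below probe 17720 on 12 of 12 arrays, by 1.94 on average (SD 0.37), and both carry the accession of the same transcript. Plod2 probe 9958 lay below probe 37548 on 12 of 12 arrays, again with 1 shared accession, and the Plod3 probes, listed under different accessions, were apart by 1.11 (SD 0.36) on all 12. Loxl2 probe 6281 lay below its partner on 9 of 12 arrays, and Tgm2 probe 6749 did so on 9 of 12. The files used here hold no probe positions within the transcripts, so which part of each transcript a probe reads is not given.

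Shld1 moved no member past the test at any dose. At 1 µM, 0 of 14 probes passed in limma, where 0.00329% of the 30357 probes did, and 2 had an unadjusted p under 0.05, where 4.23% of all probes did. At 100 nM 0 passed (0% of all) and 1 was under 0.05 unadjusted (3.23% of all), and at 10 nM 0 passed (0% of all) and 1 was under 0.05 unadjusted (2.67% of all). The median log2 change over the 9 genes was -0.05 at 1 µM, -0.04 at 100 nM and -0.09 at 10 nM, beside -0.02, 0.02 and -0.01 over all 14524 named genes. The 3 doses share the control arrays, so their values are not independent of each other. The range of single gene changes ran from -0.40 to 0.48 at 1 µM. The F test over the doses called 0 of 14 (0.00329% of all probes), with 1 member at an unadjusted p under 0.05 (3.31% of all). The mean of the doses called 0 of 14 (0% of all; 2 unadjusted, 3.16% of all) and the trend over dose rank 0 of 14 (0.00329% of all; 2 unadjusted, 3.76%). The step from 100 nM to 1 µM called 0 of 14 (0.00329% of all; 1 unadjusted, 4.82%) and that from 10 nM to 100 nM 0 of 14 (0% of all; 1 unadjusted, 3.81%). Over the 7 comparisons and the F test the adjusted p of a member lay between 0.988 and 1 in limma.

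**Figure D2:**
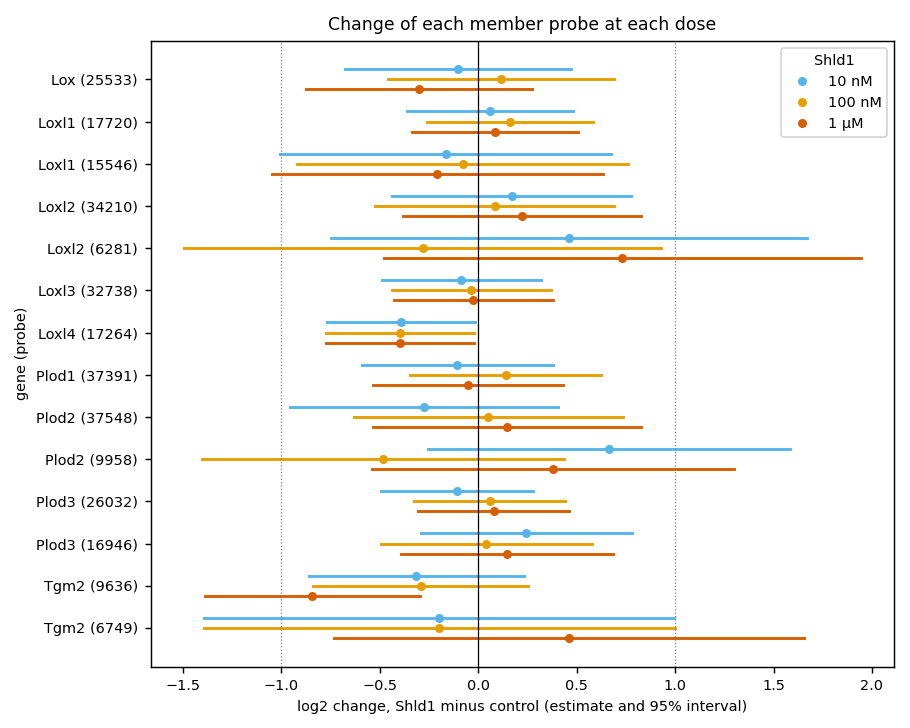
Log2 change of each member probe against control at 10 nM, 100 nM and 1 µM Shld1 (points) with the 95% interval of the limma fit (lines). Dotted lines mark a 2-fold change either way, and the intervals of the Loxl4 probe and of Tgm2 probe 9636 at 1 µM lie below 0 before adjustment for the number of probes tested.

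Lox itself was most spread at the highest dose. Its log2 ratios were 2.11, 2.11 and 1.90 at 10 nM, 2.42, 1.98 and 2.37 at 100 nM, and 2.38, 1.88 and 1.27 at 1 µM. The 1 µM arrays spanned from among the highest values to the lowest of all 12, and they overlapped the controls. The change at 1 µM was -0.30 (SE 0.26, 95% interval -0.87 to 0.28) and -0.02 without 1 µM replicate 3, that at 100 nM 0.12 (SE 0.26) and that at 10 nM -0.10 (SE 0.26). Group means ran in the order 100 nM, control, 10 nM and 1 µM, with no neighbours apart beyond their spread. The array with the lowest Lox value, 1 µM replicate 3, also had the lowest mean of the fibroblast markers, 1.12. Its spread of all ratios was small too, with a median absolute deviation of 0.608 in a range of 0.589 to 0.749 over the arrays. Whether these values are linked was not tested.

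Loxl1 kept a narrow range on its probe of higher ratio. On probe 17720 the values were 2.29, 2.46 and 2.31 at 10 nM, 2.59, 2.17 and 2.61 at 100 nM and 2.68, 2.29 and 2.17 at 1 µM, so that all 12 arrays fell within 0.53 log2 units. Its change was 0.08 at 1 µM (95% interval -0.34 to 0.51), 0.16 at 100 nM (-0.26 to 0.58) and 0.06 at 10 nM (-0.36 to 0.48), which leaves out a 2-fold change either way at each dose. Probe 15546 was more scattered, from -0.44 to 1.02, with a change of -0.21 at 1 µM (95% interval -1.05 to 0.63).

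Loxl2 varied widely between replicates. On probe 6281 the ratios were -1.41, -0.52 and -0.92 at 10 nM, -1.87, -1.0 and -2.20 at 100 nM and -1.65, -0.12 and -0.28 at 1 µM. The change at 1 µM, 0.73 (SE 0.56), had an interval from -0.48 to 1.94 and was 0.08 without control replicate 1. The spread of this probe within groups was larger than that of 96.8% of tested probes. Probe 34210 gave 0.22 at 1 µM (95% interval -0.38 to 0.83). Loxl3, a matrix enzyme whose loss causes cleft palate in mice, was steady: its 12 values lay between -0.21 and 0.32, and its change was -0.02 at 1 µM (95% interval -0.43 to 0.38).

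Loxl4 had nearly equal values at the 3 doses and did not pass. Against -0.09 and -0.22 in controls, its ratios were -0.55, -0.54 and -0.56 at 10 nM, -0.63, -0.42 and -0.62 at 100 nM, and -0.61, -0.41 and -0.65 at 1 µM. All 9 treated arrays lay below both control arrays. The change was -0.39 (SE 0.17) at 10 nM, -0.40 (SE 0.17) at 100 nM and -0.40 (SE 0.17, 95% interval -0.77 to -0.02) at 1 µM, each with an adjusted p of 0.999 or 1 in limma. Groups that do not overlap, with the dose lower, were found for 3.83% of all probes at 10 nM, 4.56% at 100 nM and 4.85% at 1 µM, and for 1 (Loxl4), 1 (Loxl4) and 2 (Loxl4 and Tgm2 probe 9636) of the 14 member probes. With the dose higher there were 0 members at each dose (3.92%, 4.86% and 3.94% of all probes from the lowest to the highest dose). The same 2 control arrays enter all 3 comparisons. Of all tested probes, 25745 had values on all 12 arrays, whereas Loxl4 had only 2 control values. Groups part more easily by chance with 2 control values than with 3, so these shares are no matched background for Loxl4. The share of all probes with all 9 treated arrays below the controls was not computed. The spread of the Loxl4 probe within groups was among the lowest 0.75% of tested probes.

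The lysyl hydroxylases did not change past the test. Plod1 read -1.09, -1.09 and -0.83 at 10 nM, -0.74, -0.82 and -0.72 at 100 nM and -0.49, -1.0 and -1.35 at 1 µM, overlapping the controls at every dose. Its change at 1 µM was -0.05 (95% interval -0.54 to 0.43). Plod2 probe 9958 read -1.44, -1.97 and -1.39 at 10 nM, -2.24, -3.82 and -2.18 at 100 nM and -2.05, -2.23 and -1.38 at 1 µM. Here the 100 nM arrays all lay below the 10 nM arrays, a difference of -1.15 (SE 0.42, 95% interval -2.07 to -0.23) that did not pass (adjusted p = 0.999 in limma), and 100 nM replicate 2 was the lowest of the 12. Without that array the difference was -0.61. Groups at 100 nM lay wholly below those at 10 nM for 1 member probe, this one, and for 5.59% of all probes, and wholly above for 1, Plod1, and for 6.19% of all. The other Plod2 probe differed in the opposite direction over this step, by 0.33 (SE 0.31). Plod3 was level: probe 26032 lay between 0.36 and 1.04 on all arrays, with a change of 0.08 at 1 µM (95% interval -0.30 to 0.46), and probe 16946 gave 0.15 (-0.39 to 0.68).

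The 2 Tgm2 probes gave changes of opposite sign at 1 µM, neither of which passed, and the difference between them was not tested. On probe 9636 the ratios were -2.03, -1.29 and -1.71 at 10 nM, -1.68, -1.40 and -1.89 at 100 nM and -2.30, -1.98 and -2.33 at 1 µM. All 3 arrays at 1 µM lay below all 3 controls, with a change of -0.84 (SE 0.25, 95% interval -1.39 to -0.30), which had the smallest unadjusted p of any member at a dose, 0.00572, and did not pass over all probes (adjusted p = 0.999 in limma). The 1 µM arrays also lay wholly below the 100 nM arrays, as 6.05% of all probes did and 1 of 14 members, this one. On probe 6749, which carries the same accession, the 1 µM arrays read -2.75, -1.13 and -0.52, with a change of 0.46 (SE 0.55, 95% interval -0.73 to 1.66) that was -0.01 without 1 µM replicate 3. On 1 µM replicate 1 both probes lay below all controls. Averaged over both probes the change of Tgm2 at 1 µM was -0.19 (SE 0.29).

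**Figure D3:**
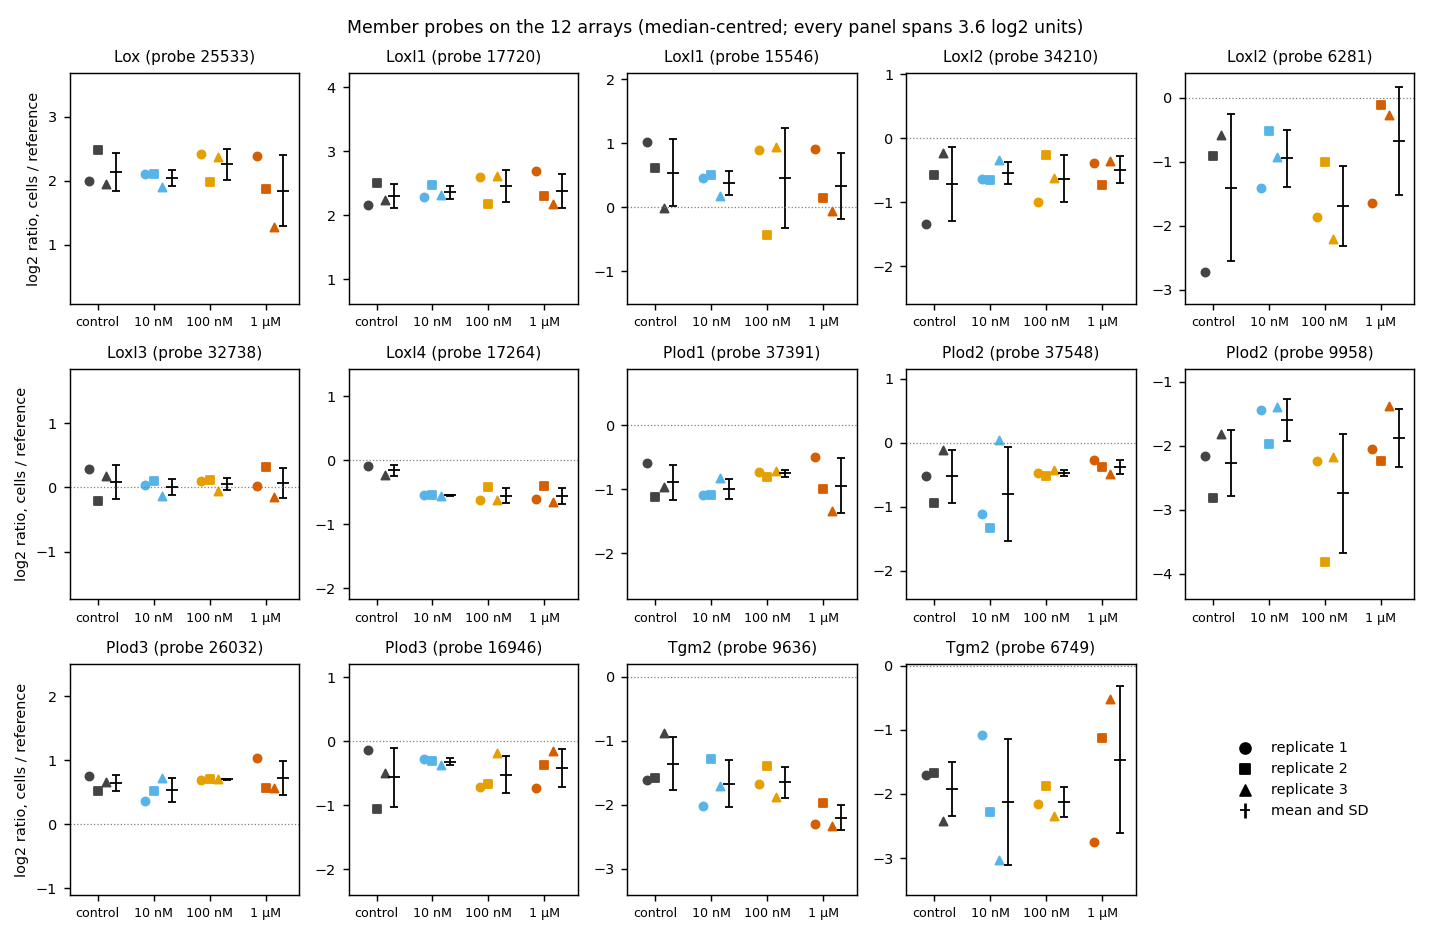
Log2 ratio of cells over reference (vertical axis, median-centred) on each of the 12 arrays for the 14 member probes, by group, with symbols for replicate number and the group mean and SD beside them. Every panel spans the same number of log2 units, so the narrow range of Loxl1 probe 17720 and the wide scatter of Loxl2 probe 6281 and Tgm2 probe 6749 can be compared directly.

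How far these data bound a response differs between members. At 1 µM the 95% interval stayed inside a 2-fold change either way for 9 of 14 member probes and for 77.9% of all tested probes. It did so for 11 of 14 at 100 nM (80.4% of all) and 10 of 14 at 10 nM (80% of all). The exceptions at 1 µM were Loxl2 probe 6281, both Tgm2 probes, Plod2 probe 9958 and Loxl1 probe 15546. A change smaller than 2-fold in the remaining probes could still be present.

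Pairs of member probes were compared across the 12 arrays, regardless of dose. Of 91 pairs of member probes, 3 had a Pearson correlation above 0.7 and 2 below -0.7, with a median of -0.05 over all pairs. The share of all probe pairs beyond these limits was not computed, so the counts cannot be called particular to the members. Plod1 went with Plod3 probe 26032 (r = 0.82, n = 12), Lox with Loxl1 probe 17720 (r = 0.78, n = 12) and Loxl4 with Loxl3 (r = 0.75, n = 11). Loxl2 probe 6281 ran opposite to Loxl1 probe 15546 (r = -0.75, n = 12) and to Plod1 (r = -0.74, n = 12). Other probes of these genes gave like values in some pairs, 0.66 for Lox with Loxl1 probe 15546 and -0.68 for that probe with Loxl2 probe 34210. They did not in others: Plod1 with Plod3 probe 16946 gave -0.12, and Loxl1 probe 17720 gave -0.29 with Loxl2 probe 6281 and -0.05 with probe 34210. All are descriptions over arrays that share a reference RNA and a hybridisation each, with no test.

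The overall spread of ratios on an array moved with several members. The median absolute deviation of all probes ran from 0.589 on control replicate 3 to 0.749 on 1 µM replicate 1. Over the 12 arrays it correlated with Lox at 0.66, with the Loxl1 probes at 0.71 and 0.59, with Plod1 at 0.70 and with the Loxl2 probes at -0.62 and -0.61. When every array was scaled to the same median absolute deviation, the correlation of Lox with Loxl1 probe 17720 was 0.44, that of Plod1 with Plod3 probe 26032 was 0.57, and that between the 2 Loxl1 probes went from 0.65 to 0.03. Loxl3 with Loxl4 went from 0.75 to 0.82, and Loxl2 probe 6281 with Loxl1 probe 15546 from -0.75 to -0.72. Plod3 probe 26032 went from 0.64 to 0.78 with Plod2 probe 37548, and from -0.16 to -0.06 with Plod2 probe 9958. The value of Loxl1 probe 17720 turned positive, to 0.27 with Loxl2 probe 6281 and 0.56 with probe 34210. The scaling divides each ratio by a factor of its array, so it shifts probes far from 0 the most. Loxl1 probe 17720, with a mean of 2.37 and a range of 0.53, is such a probe. Its scaled values carry that factor, so its scaled correlations do not show what is left without the array spread.

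**Figure D4:**
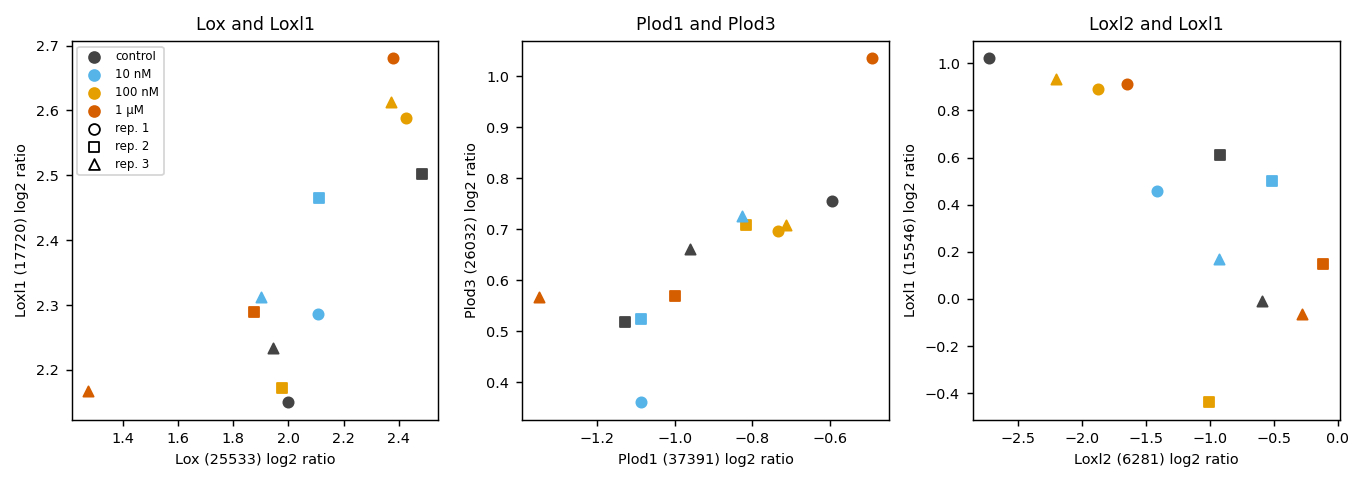
Log2 ratios of 3 pairs of member probes over the 12 arrays, with colour for the group and symbol for the replicate number. Lox with Loxl1 probe 17720 (r = 0.78) and Plod1 with Plod3 probe 26032 (r = 0.82) go up together across arrays, and Loxl2 probe 6281 goes opposite to Loxl1 probe 15546 (r = -0.75). The panels show chosen probes, and the other probes of Plod3 and Loxl1 gave other values.

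Outside the family, the genes most like each member over the arrays were sought by correlation among 12983 other genes measured on every array (12984 for Loxl4). Genes with a provisional symbol are within this number and the ranks below. They were passed over in naming, so a named gene need not be the highest of all. For Lox these were Marcks, a substrate of protein kinase C (r = 0.97), and Chmp1a (r = 0.96), and Loxl1 came at rank 351 (r = 0.75, mean of its probes). Averaged over its probes, Plod3 came at rank 3281 for Plod1 (r = 0.34), and Plod1 at rank 2290 for Plod3. For Loxl1 they were Rnf145 (0.96) and Dusp19 (0.94), and for Loxl2 Fbln1, which encodes the matrix protein fibulin 1 (0.95), and Clec7a (0.93). The nearest to Plod1 were Ppp4r3b and Arpc2, a subunit of the actin-nucleating Arp2/3 complex (both 0.93), to Plod2 Manba (0.94) and Olfr703 (0.91), and to Plod3 Shmt2 (0.93) and Tnfrsf11a (0.91). Tgm2 was nearest to Usp42 (0.89) and Nol12 (0.88), Loxl3 to Pdzd11 (0.88) and Kcnd1 (0.87), and Loxl4 to Psrc1 (0.89) and Ntm (0.87, n = 11). All other values are over 12 arrays, and a high value is common when so many genes are compared over so few arrays.

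RefSeq promoters (mouse build GRCm38.p6) were at hand for 3 members, Plod1, Plod3 and Loxl4. They are shown because none was at hand for the other 6 members, so the choice was not led by the results. Plod1 and Plod3 probe 26032 had the highest correlation of the 91 unscaled probe pairs, but 0.57 at equal spread. Averaged over the probes of each gene it was 0.34. Loxl4 was the member whose treated arrays all lay below the controls. Each line gives the 250 bases before the transcription start, 5′ to 3′ on the strand of the gene. Capitals mark matches on either strand to GGGCGG, the GC box bound by Sp1-type factors, and to ACGTG or GCGTG, the core of the hypoxia response element, and no matches overlap.
Plod1 (chr4:147936777-147937026, minus strand): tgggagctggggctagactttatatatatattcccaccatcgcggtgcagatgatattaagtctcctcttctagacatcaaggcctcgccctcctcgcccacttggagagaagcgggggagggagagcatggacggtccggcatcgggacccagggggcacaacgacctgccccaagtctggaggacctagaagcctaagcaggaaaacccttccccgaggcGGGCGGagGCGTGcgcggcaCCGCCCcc
Plod3 (chr5:136986769-136987018, plus strand): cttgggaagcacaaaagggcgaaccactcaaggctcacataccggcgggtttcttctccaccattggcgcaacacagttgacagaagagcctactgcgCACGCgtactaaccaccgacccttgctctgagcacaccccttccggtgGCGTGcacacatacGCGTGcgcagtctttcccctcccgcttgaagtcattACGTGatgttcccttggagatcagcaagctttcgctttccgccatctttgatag
Loxl4 (chr19:42612807-42613056, minus strand): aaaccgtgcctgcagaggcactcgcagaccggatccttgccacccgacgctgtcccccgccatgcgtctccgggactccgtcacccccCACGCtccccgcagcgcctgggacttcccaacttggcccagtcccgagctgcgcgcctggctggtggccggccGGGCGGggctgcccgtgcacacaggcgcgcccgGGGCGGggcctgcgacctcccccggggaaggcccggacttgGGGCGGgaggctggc

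The Plod1 window held 2 GC boxes and 1 GCGTG within its last 28 bases. The Plod3 window had no GC box, 3 GCGTG and 1 ACGTG, and the Loxl4 window had 3 GC boxes and 1 GCGTG. Among all 32851 promoter windows of this length, 32.7% held GGGCGG, 16.6% ACGTG and 28.2% GCGTG on either strand. The windows of Plod1, Plod3 and Loxl4 were 61.6%, 55.6% and 76% G or C, beside a median of 52.4% over all windows. They held CG 16, 17 and 27 times, beside a median of 6. Each motif contains CG, so these shares are no matched background. The windows of Plod1 and Plod3 thus share GCGTG but not the GC box. These are matches of letters, not binding sites.

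The genes around these enzymes were read from 6 lists, 56 of 68 genes being measured, with 1 value per gene. Against the reference, 22 of 56 (39.3%) passed above in control cells, where 26.5% of all 14524 genes did, and 7 of 56 (12.5%) below, where 19.6% did. The collagens, substrates of the members, had 7 of 11 above, among the 22, and 1 below (median log2 ratio 0.80). Col1a1 stood at 1.11 (SD 0.18, n = 3), Col1a2 at 1.62 (SD 0.40, n = 3) and the fibril-forming Col3a1 at 0.01 (SD 0.24, n = 3).

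Of the endoplasmic reticulum enzymes and chaperones of collagen, 6 of 14 passed above and 2 below, where 26.5% and 19.6% of all genes did. The same shares of all genes apply to the lists that follow. P4ha3, a prolyl hydroxylase subunit, was at 1.68 (SD 0.05, n = 3) and the collagen chaperone Serpinh1 at 1.29 (SD 0.16, n = 3), whereas P4ha1 was at -1.35 (SD 0.62, n = 3). Procollagen processing and lysyl oxidase activation had 3 above and 2 below of 8. There Postn (periostin, which helps to bring the activating protease to lysyl oxidase) was at 3.18 (SD 0.50, n = 3), that protease, Bmp1, at -0.20 (SD 0.20, n = 3) and Fmod (fibromodulin, a collagen-binding proteoglycan) at -1.85 (SD 0.43, n = 3). Elastic fibre genes had 4 above and 1 below of 10, with Fbln2 at 1.70 (SD 0.32, n = 3). Among the copper genes, the chaperone Atox1 passed above at 0.50 (SD 0.16, n = 3) and the plasma ferroxidase Cp below at -1.12 (SD 0.19, n = 3), with 7 others, Atp7a among them, passing neither way. Of the other transglutaminases 1 of 4 passed, Tgm3 at 0.39 (SD 0.10, n = 3), a share close to that of all genes above the reference.

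None of these 56 genes passed against control at any dose (limma, 0% of all genes), with 3 at an unadjusted p under 0.05 at 1 µM (4.26% of all genes), 0 at 100 nM (3.02%) and 2 at 10 nM (2.48%). At 1 µM the collagens had a median change of -0.12 with 9 of 11 below 0 and 2 above, where 46.6% of all genes were above. Their mean log2 ratio was 0.45, 0.62 and 0.34 on the 3 arrays at 1 µM and 0.55 to 0.69 on control arrays. The median was -0.05 for the endoplasmic reticulum list (5 of 14 above 0), 0.04 for processing (5 of 8) and 0.02 for elastic fibres (6 of 10). Copper gave -0.05 (4 of 9) and the other transglutaminases 0.02 (2 of 4), beside -0.02 over all genes. The 3 unadjusted values were those of Emilin1, an elastic fibre glycoprotein, at -0.46 (SE 0.16), Fbn2 (fibrillin 2) at -0.57 (SE 0.24) and Col3a1 at -0.45 (SE 0.18). Next in their lists came Fbln1 at 0.47 (SE 0.30), Col6a1 at -0.30 (SE 0.19), Col1a1 at -0.21 (SE 0.15), the proline 3-hydroxylation genes Crtap at -0.31 (SE 0.17) and P3h3 at -0.43 (SE 0.27), and P4ha3 at -0.26 (SE 0.19). Values of the smaller lists were -0.42 (SE 0.32) for Postn, 0.39 (SE 0.41) for Pcolce2, 0.26 (SE 0.29) for Tll2, 0.31 (SE 0.19) for Slc31a2, -0.21 (SE 0.18) for the copper importer Slc31a1 and -0.12 (SE 0.17) for Cp. The transglutaminases Tgm4, Tgm1 and Tgm3 gave -0.13 (SE 0.24), 0.09 (SE 0.30) and -0.05 (SE 0.16).

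**Figure D5:**
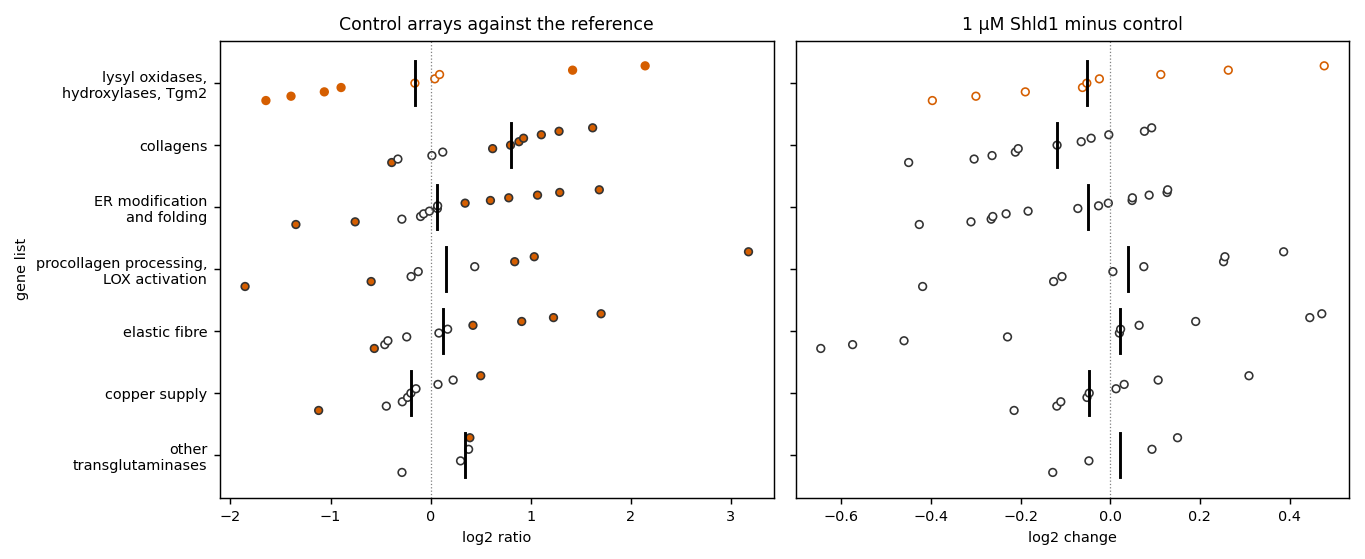
Log2 ratio of control cells over reference (left) and log2 change at 1 µM Shld1 (right) for the 9 members and the 6 lists of related genes, 1 point per gene, with a bar at the median. Filled points passed limma at an adjusted p of 0.05, which genes of every list did on the left and no gene did on the right.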

How the data were processed

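The deposited file holds 1 log2 ratio per probe and array. For the authors' normalization, background correction, spot filters and log base the labels name no method (not given in the sources used here). Per the labels, each array carried cell RNA in Cy5 and a reference RNA in Cy3. Array medians of the deposited values lay between -0.20 and -0.10, so each array was centred on its median. The scale (log base) and centring of the deposited values stay unknown. Pairs of arrays correlated at 0.656 to 0.846. Probes were named from the platform annotation, with symbols updated through a RefSeq table.

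Probes needed 2 or more values among the 3 arrays in each group. The 30357 that had them were fitted in limma 3.58.1 (R 4.3.3) over all 12 arrays with a term for group, and adjusted by the Benjamini-Hochberg method at 0.05. Lists used 1 value per gene, averaging those of its probes that were never blank, or else taking the most complete probe. All 9 members are named, with the 3 genes of smallest unadjusted p at 1 µM in each list. Also named are the 2 genes most correlated with each member among those without a provisional symbol. Others named for their ratio to the reference were chosen after their values were seen. Members and lists were chosen with earlier results of these data known. Figures used matplotlib 3.10.9. Scanner intensities were not analysed here, so signal over background is unknown, and the number of arrays limits the precision.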

Additional observations from a re-analysis of the deposited data

How the results depend on the processing

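Results were recomputed under 17 to 23 of 27 other settings each: values without centring, equal spread, quantile normalization, stricter and looser filters on blank values, fixed and random replicate blocks, robust variance, array weights, 1 value per gene, 12 fits without 1 array and 5 fits of 2 groups alone. A fit of 2 groups gives only its own comparison. No member passed against control or between doses where these were recomputed, the smallest adjusted p being 0.701 in limma. The median change of the 9 genes was 0.022 at 10 nM with quantile normalization, and with array weights 0.030 at 100 nM and -0.018 at 10 nM. In fits without 1 array it ran from -0.129 to 0.084 at 1 µM, from -0.103 to 0.066 at 100 nM, from -0.139 to 0.017 at 10 nM, from -0.122 to 0.053 for the mean of the doses, from -0.074 to 0.046 for 1 µM against 100 nM and from -0.011 to 0.070 for 100 nM against 10 nM. The cause of these moves was not tested. With 1 value per gene, which leaves 9 values in place of 14, 4 passed below the reference in controls, where 19.6% of all genes did. Over all 12 arrays 2 passed above and 5 below, where 10601 of all 14524 genes passed in either direction. Without 1 array the counts in controls were 3 above and 5 to 8 below, where 9310 to 13458 of all 30357 probes passed in either direction. Loxl1 probe 15546 lost its call over all 12 arrays without centring (adjusted p = 0.0822) and with quantile normalization (0.0941), while Plod2 probe 37548 passed below the reference in controls under 6 settings, the replicate block among them (0.0492). The labels do not say that a replicate number marks a shared culture, day or batch, although the titles number the arrays of each replicate consecutively. Deviations from the group means correlated above 0.1 in 9 of 18 pairs of the same number (median 0.10) and 5 of 36 of different number (median -0.06), and 8 of 12 arrays correlated best with their own number, a hint from the data and not the design. With that number as a replicate block, 0 members passed at 1 µM, where 0 of all 30357 probes did. In controls 3 member probes then passed above the reference and 8 below, where 13499 of all 30357 probes passed in either direction. Under this block the probes above and below were not counted apart over the whole array, so neither member count has its own background. The F test was not rerun under the looser filter, random block, robust variance, array weights or 1 value per gene.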
